A study of Homo sapiens with 8 samples.

Results

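Fatty acid oxidation and ketone body genes were followed through stable knockdown of SMARCB1, which encodes a SWI/SNF chromatin remodeller subunit, in 2 established human liver cancer lines. The module held 33 of the 20044 genes named on the array: carnitine-linked transport enzymes, the enzymes of the mitochondrial and peroxisomal spirals, electron carriers, acyl-CoA thioesterases, ketone body enzymes and regulators, counted here as PPARA, PPARD, PPARGC1A and the kinase PDK4. Members were chosen by gene symbol, and the probe with the highest mean over the 8 arrays stood for each gene. Of the 33 members, 32 were bright enough to be tested among 12411 genes, and BDH1 was not.

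SK-Hep1 came from a liver adenocarcinoma and has endothelial features. Huh7 came from a hepatoma and retains traits of hepatocytes. Each line gave 2 control arrays and 2 knockdown arrays, numbered 1 and 2 against 11 and 12 in SK-Hep1 and 1 and 2 against 3 and 4 in Huh7. Per the labels' protocols, stable cells with short hairpin RNA were kept under puromycin at 1.25 µg/mL, with the same text for all 8 samples. GFP appears in the titles of the control arrays of Huh7 alone, and both Huh7 knockdown titles also carry the number 11. It is not given whether 11 and 12 stand for separate hairpins. Both arrays of a group carry a common replicate number in their descriptions and nothing names separate cultures. All p-values here thus rest on the spread between 2 arrays of a group, which may be technical. Except in fits to the arrays of a line alone, that spread was pooled for each gene over both lines. The median log2 gap between replicate arrays over all genes was 0.0867 in SK-Hep1 controls and 0.107 after knockdown. In Huh7 it was 0.0633 and 0.0668. Tests in SK-Hep1 thus drew in part on the smaller spread of Huh7, and tests in Huh7 on the larger spread of SK-Hep1.

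Fatty acids are activated to acyl-CoA, carried into mitochondria on carnitine and shortened by repeated rounds of dehydrogenation, hydration, a further dehydrogenation and thiolysis. Peroxisomes shorten very long and branched chains by a parallel route that begins with an oxidase. In the liver the receptor PPARA and its coactivator PPARGC1A are known to raise many of these genes during fasting, when acetyl-CoA is turned into ketone bodies.

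As log2 intensity, SMARCB1 in SK-Hep1 was 10.68 and 10.62 on the control arrays and 9.30 and 9.67 on the knockdown arrays. In Huh7 the controls were at 10.84 and 10.95 and the knockdown arrays at 9.22 and 9.27. Every knockdown array lay below every control array of its line. SMARCB1 fell 2.24-fold in SK-Hep1 (adjusted p = 0.000113). The Huh7 fall was 3.13-fold (adjusted p = 3.48e-06). Any offset between the lines is nearly missing from the deposited values. Subtracting the Huh7 mean of a gene from its SK-Hep1 mean gave an SD of 0.029 over genes, and at most 0.053 for any tested member. A level in one line can therefore not be set against the level in the other, and only differences within a line, knockdown minus control, are read here. It is not known whether scales were altered within a line too. The marker genes of liver cells and of other cell types cannot place a line for the same reason. Nor can the level of a gene, or its being bright enough to be tested, show that it was expressed in a given line.

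In Huh7 the knockdown lowered the regulators, the kinase PDK4 among them, while the other members split in both directions. Of the 32 tested members, 10 fell and 5 rose in Huh7 at an adjusted p under 0.05 (limma, Benjamini-Hochberg adjustment over all 12411 genes). The genes that fell were PPARGC1A, PPARA, PDK4, PPARD, ACOX2, CRAT, HADH, ACADSB, ACADVL and ETFA, and those that rose were PEX11A, ACAA2, ACOX3, ACOT1 and ECHS1. The share of members called was 46.9%, against 38.9% of all genes tested, with 19.4% of all genes higher and 19.5% lower. In SK-Hep1 ACOX2 and ACADS rose and ACOT1, ACOT2 and ECI1 fell. That was 15.6% of the members, against 16.8% of all genes, with 8.31% of all genes higher and 8.54% lower. The shares of members called thus lay near those of the whole array in SK-Hep1 and somewhat above in Huh7, and no test of that gap was made.

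The typical change was small. The median difference over the tested members was -0.06 in each line, against -0.01 in SK-Hep1 and 0.00 in Huh7 over all genes, on the log2 scale. The median size regardless of direction was 0.0997 in SK-Hep1 and 0.182 in Huh7, beside 0.124 and 0.175 over all genes. Replicate arrays of a group differed by a median of 0.0700 to 0.0938 over the members. That is a distance between single arrays, while the median sizes compare means of 2 arrays, which vary less. These measures are thus not on one footing. Among the members not called, the 95% confidence intervals of single differences reached from -0.50 (HADH) to 0.48 (PPARD) in SK-Hep1 and from -0.39 (ACADS) to 0.33 (ACADL) in Huh7. Changes up to those bounds are not excluded for those genes. Leaving out 1 array takes a group down to a lone array, which is then assumed to vary like the other groups. In Huh7, 8 of the 15 called members kept their call through all 8 such fits, and in SK-Hep1 1 of 5 did, ACOT1. The count of members that fell in Huh7 was 6 without control array 2, without knockdown array 3 or without knockdown array 4, and the count that rose was 3 without control array 1 or knockdown array 3. In SK-Hep1 no member was called higher without control array 1 or without control array 2, 1 was called lower without control array 1, and 1 was called higher without knockdown array 11 or either Huh7 knockdown array.

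**Figure D1:**
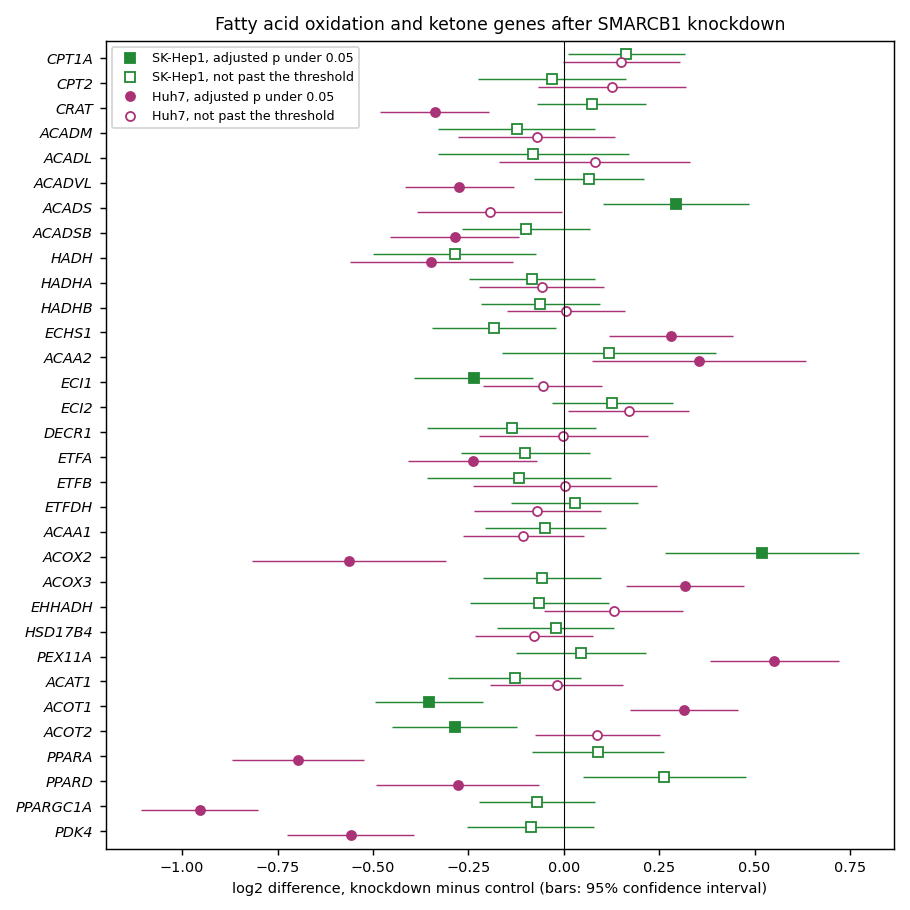
Log2 difference, knockdown minus control, for each of the 32 tested members (rows, by role) in SK-Hep1 (squares) and Huh7 (circles), with 95% confidence intervals as bars and filled symbols where the adjusted p was under 0.05. The lowest value is PPARGC1A in Huh7 at -0.95, and ACOX2 has filled symbols on opposite sides of 0.

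All 4 regulators were called lower in Huh7, as were 19.5% of all genes, and none passed the test in SK-Hep1. They belong to members chosen with earlier results of these data known, and the PPARD call was lost in some fits given below. PPARGC1A, the coactivator that drives mitochondrial oxidation genes, read 8.01 and 8.13 in Huh7 controls and 7.12 and 7.11 after knockdown (probe ILMN_1750062). The knockdown arrays lay far below both controls, a 1.94-fold fall with a log2 difference of -0.95 ± 0.0687 (SE, n = 2 per group, adjusted p = 6.02e-06). In SK-Hep1 the controls at 7.59 and 7.58 and the knockdown arrays at 7.51 and 7.52 sat close together (difference -0.07, adjusted p = 0.519).

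PPARA, the fatty acid receptor that switches on oxidation genes in the liver, read 7.55 and 7.63 in Huh7 controls against 6.84 and 6.95 after knockdown (probe ILMN_2362847). The groups did not overlap, and PPARA fell (-0.70 ± 0.0779, adjusted p = 0.000104). Both knockdown arrays lay below the brightness cut of 7.003, so the size of the fall is uncertain and no fold is given. In SK-Hep1 the values were 7.13 and 7.19 in controls and 7.33 and 7.18 after knockdown. One knockdown array lay between the controls there, and the difference of 0.09 did not pass the test (adjusted p = 0.458). PDK4, which blocks pyruvate dehydrogenase and so spares glucose when fat is burned, read 7.72 and 7.69 in Huh7 controls and 7.20 and 7.09 after knockdown. It fell 1.47-fold without overlap (-0.56 ± 0.0750, adjusted p = 0.000319). In SK-Hep1 its controls at 7.50 and 7.40 overlapped the knockdown arrays at 7.31 and 7.41 (-0.09, adjusted p = 0.455). Near the cut fold changes may be understated, and a stricter cut at 7.52 leaves PPARA and PDK4 out.

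PPARD, a broadly expressed relative of PPARA, read 8.63 and 8.41 in Huh7 controls and 8.26 and 8.22 after knockdown. Both knockdown arrays were below the controls, but the controls were themselves 0.216 apart, the widest replicate gap of any member in that group. Its difference was -0.28 ± 0.0961 (adjusted p = 0.0420). In SK-Hep1 PPARD read 8.18 and 8.37 in controls and 8.46 and 8.61 after knockdown, a difference of 0.26 that missed the threshold (adjusted p = 0.0861). The Huh7 call was lost without control array 1 (-0.17, adjusted p = 0.296), knockdown array 3 (0.114) or knockdown array 4 (0.159), and when its bright probes were averaged (-0.16, adjusted p = 0.112). PPARGC1A, PPARA and PDK4 kept the Huh7 call in all 8 fits that left out an array.

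**Figure D2:**
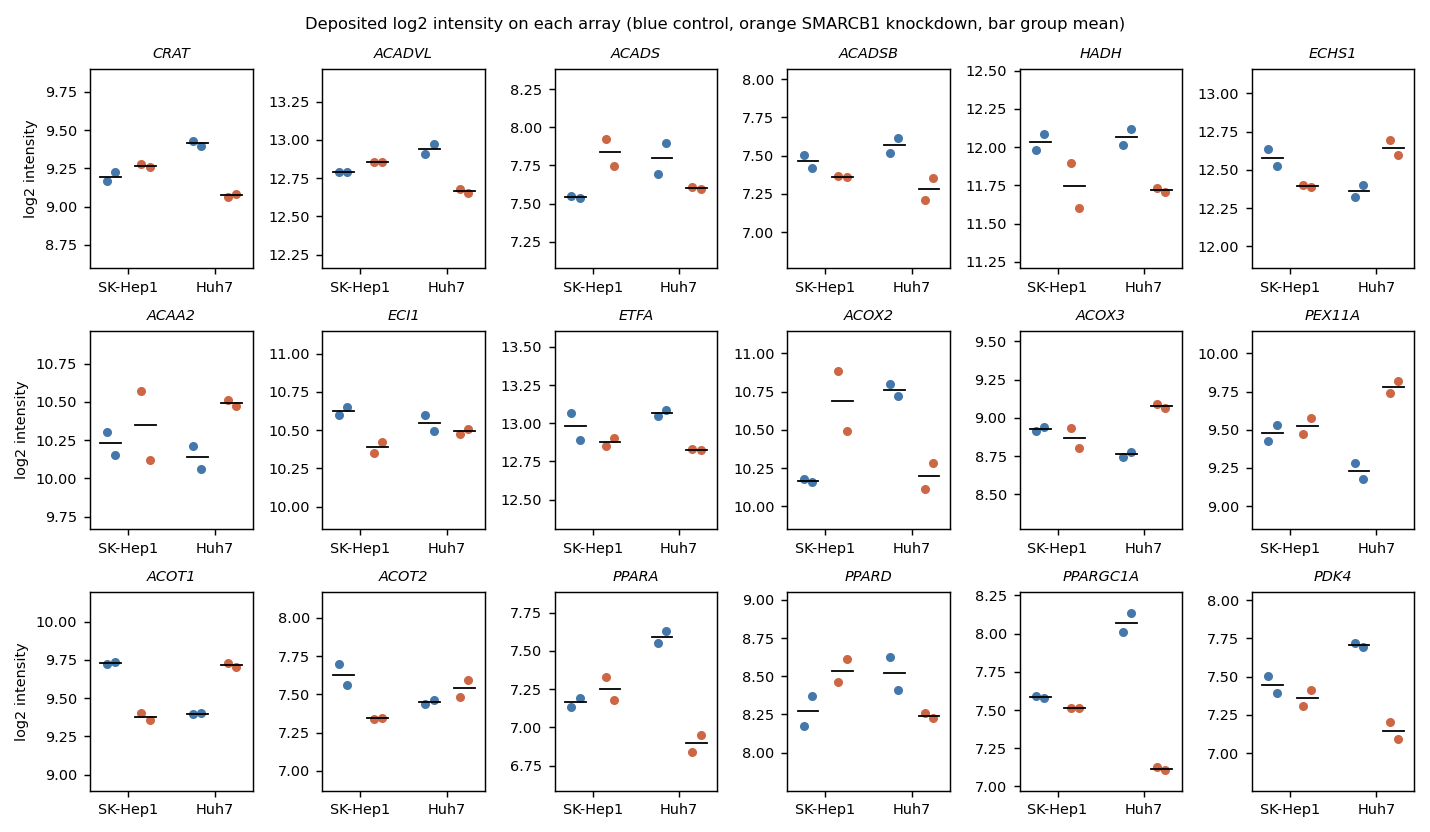
Deposited log2 intensity (vertical axis) on each array for the 18 members called in at least 1 line, with controls in blue, knockdown in orange and a bar at the mean of the 2 arrays of a group. Levels cannot be compared between the lines; within Huh7 the orange points of PPARGC1A lie at 7.12 and 7.11 and the blue ones at 8.01 and 8.13.

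Peroxisomal genes moved in both directions. ACOX2, the oxidase that acts on branched chains and bile acid intermediates, rose in SK-Hep1 and fell in Huh7. The SK-Hep1 control arrays read 10.18 and 10.16 and the knockdown arrays 10.88 and 10.49. The Huh7 control arrays read 10.80 and 10.72 and the knockdown arrays 10.12 and 10.28 (probe ILMN_1685703). Groups did not overlap in either line, although the 2 SK-Hep1 knockdown arrays were 0.39 apart. The rise was 1.43-fold (0.52 ± 0.114, adjusted p = 0.0127) and the fall 1.48-fold (-0.56 ± 0.114, adjusted p = 0.00347). The SK-Hep1 value was 0.32 without knockdown array 11 and 0.71 without knockdown array 12, and its call was lost without control array 1 (adjusted p = 0.0711) or control array 2 (0.0712).

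PEX11A, a membrane protein that promotes division of peroxisomes, had the largest rise of the members in Huh7. Its controls stood at 9.28 and 9.18 and its knockdown arrays at 9.74 and 9.82, a 1.47-fold rise without overlap (0.55 ± 0.0765, adjusted p = 0.000385). In SK-Hep1 its control arrays at 9.42 and 9.53 and knockdown arrays at 9.47 and 9.58 overlapped (0.05, adjusted p = 0.722). ACOX3, the oxidase for pristanoyl-CoA, read 8.75 and 8.78 in Huh7 controls and 9.09 and 9.06 after knockdown. It rose by 0.32 ± 0.0699 (adjusted p = 0.00527). In SK-Hep1 its values of 8.91 and 8.94 in controls and 8.94 and 8.80 after knockdown overlapped (-0.06, adjusted p = 0.618). The later peroxisomal enzymes were not called in either line. ACAA1, the peroxisomal thiolase, differed by -0.05 in SK-Hep1 and -0.11 in Huh7. The bifunctional enzymes EHHADH (-0.06 and 0.13) and HSD17B4 (-0.02 and -0.08) had intervals that included 0 as well.

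Promoters are shown for members picked by the size and direction of their change. A shared direction therefore comes from the choice. Shown are the 3 that rose most and the 3 that fell most in Huh7 among those in the promoter table. ACOX2, whose fall lay just ahead of that of PDK4, has no entry there. Each run is the 250 bases before an annotated RefSeq start in GRCh38.p14, 5′ to 3′ on the strand of the gene. Capitals mark matches, on either strand, to any of 4 searched motifs. They are the CCAAT box (written ATTGG on the other strand), the E-box CACGTG, the ETS motif CCGGAAGT (on the other strand ACTTCCGG) and the CRE motif TGACGTCA. The windows are PEX11A at chr15:89690755-89691004, ACAA2 at chr18:49813534-49813783, ACOX3 at chr4:8440724-8440973, PPARGC1A at chr4:24472906-24473155 and PDK4 at chr7:95596517-95596766 on the minus strand, and PPARA at chr22:46150276-46150525 on the plus strand. ACOX3, PPARGC1A and PPARA list 2 starts each, of which the first is shown, and the array does not tell which start was used.
PEX11A: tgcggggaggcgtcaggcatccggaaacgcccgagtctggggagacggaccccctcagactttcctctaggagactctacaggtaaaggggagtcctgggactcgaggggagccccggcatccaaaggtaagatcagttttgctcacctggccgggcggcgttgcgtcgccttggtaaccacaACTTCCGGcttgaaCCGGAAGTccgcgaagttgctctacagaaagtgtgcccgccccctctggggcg
ACAA2: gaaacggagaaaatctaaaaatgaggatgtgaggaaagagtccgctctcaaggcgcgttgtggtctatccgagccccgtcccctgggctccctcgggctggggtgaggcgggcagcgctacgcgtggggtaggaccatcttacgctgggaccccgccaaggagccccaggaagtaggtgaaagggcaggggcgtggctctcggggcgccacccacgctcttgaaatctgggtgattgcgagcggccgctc
ACOX3: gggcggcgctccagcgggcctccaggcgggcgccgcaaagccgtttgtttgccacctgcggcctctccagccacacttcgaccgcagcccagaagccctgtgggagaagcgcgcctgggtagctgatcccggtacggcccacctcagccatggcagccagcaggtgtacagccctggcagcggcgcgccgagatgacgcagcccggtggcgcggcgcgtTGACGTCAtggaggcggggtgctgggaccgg
PPARGC1A: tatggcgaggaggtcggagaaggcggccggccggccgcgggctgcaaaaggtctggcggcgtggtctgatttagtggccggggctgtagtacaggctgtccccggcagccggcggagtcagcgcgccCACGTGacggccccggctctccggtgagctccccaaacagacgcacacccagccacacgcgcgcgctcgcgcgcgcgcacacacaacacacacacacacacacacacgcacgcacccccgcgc
PPARA: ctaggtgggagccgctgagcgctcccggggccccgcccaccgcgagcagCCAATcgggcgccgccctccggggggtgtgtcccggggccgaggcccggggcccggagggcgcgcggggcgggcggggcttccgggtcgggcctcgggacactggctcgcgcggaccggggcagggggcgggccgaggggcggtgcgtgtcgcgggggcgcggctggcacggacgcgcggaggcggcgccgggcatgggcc
PDK4: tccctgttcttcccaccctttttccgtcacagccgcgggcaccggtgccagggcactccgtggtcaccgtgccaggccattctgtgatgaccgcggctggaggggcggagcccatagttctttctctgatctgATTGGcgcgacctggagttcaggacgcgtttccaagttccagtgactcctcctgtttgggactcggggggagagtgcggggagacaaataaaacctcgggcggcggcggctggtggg
These matches describe the windows only. The hexamer AGGTCA, bound by nuclear receptors of the PPAR and RXR family, stood on neither strand of any of the 36 windows of the 26 members that matched the promoter table, against 12.1% of all 35116 windows. A direct repeat of that hexamer with 1 base between, the arrangement PPARA prefers, was likewise in 0 of the 36, and in 0.0171% of all windows. The absence says only that these letters are not within 250 bases of the start. The other motifs were chosen after the values and windows had been seen, and no match marked above overlaps another. The CCAAT box stood in 19.4% of member windows and 32% of all windows. The shares were 2.78% and 6.34% for the E-box, 5.56% and 3.42% for the ETS motif, and 5.56% and 1.65% for the CRE motif. Both member windows with the CRE motif belong to ACOX3.

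Transport into mitochondria was called for 1 gene in 1 line. CRAT, which moves acetyl groups between CoA and carnitine, read 9.43 and 9.40 in Huh7 controls and 9.06 and 9.09 after knockdown. The fall was free of overlap (-0.34 ± 0.0646, adjusted p = 0.00247), and the SK-Hep1 controls at 9.17 and 9.22 lay just below the knockdown arrays at 9.28 and 9.26 (0.07, adjusted p = 0.470). CPT1A, the entry step that malonyl-CoA inhibits, had a SK-Hep1 difference of 0.16 (adjusted p = 0.129) and a Huh7 difference of 0.15 (0.110). CPT2, which returns the acyl group to CoA inside the mitochondrion, differed by -0.03 and 0.13. Neither passed the test, although with array weights in limma CPT1A was called higher in Huh7 (adjusted p = 0.0478).

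Among the acyl-CoA dehydrogenases, which take the first step of each round, ACADVL and ACADSB fell in Huh7 and ACADS rose in SK-Hep1. ACADVL, for very long chains, was one of the brightest members, at 12.91 and 12.97 in Huh7 controls and 12.68 and 12.65 after knockdown. Its fall was -0.27 ± 0.0645 (adjusted p = 0.00756), and its other bright probes gave -0.51 and -0.15. The SK-Hep1 arrays of ACADVL read 12.79 and 12.79 in controls and 12.86 and 12.85 after knockdown (0.07, adjusted p = 0.514).

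ACADSB, for short branched chains from isoleucine, read 7.52 and 7.62 in Huh7 controls against 7.21 and 7.36 after knockdown. The groups were apart (-0.29 ± 0.0759, adjusted p = 0.0134). In SK-Hep1 its controls at 7.50 and 7.42 lay above the knockdown arrays at 7.37 and 7.36 by an amount that did not pass (-0.10, adjusted p = 0.402). ACADS, for short straight chains, read 7.55 and 7.53 in SK-Hep1 controls and 7.92 and 7.75 after knockdown, a rise of 0.29 ± 0.0859 (adjusted p = 0.0409). In Huh7 the controls were at 7.70 and 7.90 and the knockdown arrays at 7.61 and 7.60, a difference of -0.19 that was not called (adjusted p = 0.0982). With array weights in limma that Huh7 difference was called (adjusted p = 0.0409). ACADM, for medium chains, differed by -0.12 and -0.07, and ACADL, close to the brightness cut with a mean of 7.01, by -0.08 and 0.08.

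None of these calls held through every fit that left out an array. ACADVL lost its call without Huh7 control array 2 (adjusted p = 0.0726) or knockdown array 4 (0.0581), and ACADSB without control array 2 (0.112) or knockdown array 3 (0.121). ACADS lost its SK-Hep1 call without SK-Hep1 control array 1 (0.136), control array 2 (0.133) or knockdown array 11 (0.141), and without Huh7 knockdown array 3 or 4 (0.0649 each).

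The steps that follow split in Huh7, with ECHS1 and ACAA2 higher and HADH lower. ECHS1, the hydratase of short chains, read 12.32 and 12.40 in Huh7 controls and 12.69 and 12.60 after knockdown, a rise of 0.28 ± 0.0732 without overlap (adjusted p = 0.0122). In SK-Hep1 it read 12.64 and 12.52 in controls and 12.40 and 12.39 after knockdown, and the difference of -0.18 was not called (adjusted p = 0.112). ACAA2, a thiolase of the last step, read 10.21 and 10.06 in Huh7 controls and 10.51 and 10.47 after knockdown (0.35 ± 0.127, adjusted p = 0.0479). Its SK-Hep1 knockdown arrays at 10.57 and 10.12 enclosed the controls at 10.30 and 10.15 (0.12, adjusted p = 0.555). That gap of 0.449 between knockdown arrays was the widest replicate gap of any member.

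HADH, the dehydrogenase of medium and short hydroxyacyl chains, read 12.02 and 12.12 in Huh7 controls and 11.73 and 11.70 after knockdown, a fall of -0.35 ± 0.0963 (adjusted p = 0.0165). In SK-Hep1 the controls at 11.98 and 12.08 were above the knockdown arrays at 11.89 and 11.60 (-0.29, adjusted p = 0.0681). With a variance trend and robust estimation in limma that SK-Hep1 difference was called (adjusted p = 0.0267). The subunits of the trifunctional protein, which lie next to each other on chromosome 2, were not called: HADHA differed by -0.08 and -0.06 and HADHB by -0.06 and 0.01. ECHS1 lost its Huh7 call without control array 1 (adjusted p = 0.102) or knockdown array 3 (0.100), and HADH without control array 2 (0.115), knockdown array 3 (0.0621) or knockdown array 4 (0.0839). ACAA2 was lost without any one Huh7 array (0.0806 to 0.235) and without SK-Hep1 control array 1 or 2 (0.0645). In SK-Hep1 HADH (-0.43, adjusted p = 0.00717) and DECR1 (-0.30, 0.0252) were called without knockdown array 11, and ACAA2 (0.34, 0.0392) without knockdown array 12.

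Enzymes for unsaturated chains gave 1 call. ECI1, an isomerase that moves double bonds into place, read 10.60 and 10.65 in SK-Hep1 controls and 10.35 and 10.42 after knockdown. It fell by 0.24 on the log2 scale (SE 0.0699, adjusted p = 0.0431). In Huh7 its controls at 10.60 and 10.50 overlapped the knockdown arrays at 10.47 and 10.51 (-0.06, adjusted p = 0.560). The related ECI2 differed by 0.13 and 0.17 and the reductase DECR1 by -0.14 and -0.00, none called. Under other settings ECI2 was called higher in Huh7. They were the mean of its bright probes (0.21, adjusted p = 0.0249), the Huh7 arrays alone (0.0348), array weights (0.0254) and the variance trend with robust estimation (0.0416). ECI1 was lost without any one array other than SK-Hep1 knockdown array 12 (adjusted p = 0.0673 to 0.151).

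Electron carriers also gave 1 call. ETFA, a subunit of the flavoprotein that collects electrons from the dehydrogenases, read 13.04 and 13.09 in Huh7 controls and 12.83 and 12.82 after knockdown, a fall without overlap (-0.24 ± 0.0759, adjusted p = 0.0299). In SK-Hep1 its controls at 13.07 and 12.89 overlapped the knockdown arrays at 12.85 and 12.90 (-0.10, adjusted p = 0.391). Its partner ETFB differed by -0.12 and 0.00, and ETFDH, which hands the electrons to ubiquinone, by 0.03 and -0.07. The ETFA call was lost without any one of the 4 Huh7 arrays (adjusted p = 0.0945 to 0.151).

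The acyl-CoA thioesterases ACOT1, in the cytosol, and ACOT2, in mitochondria, release free fatty acid from CoA. ACOT1 read 9.72 and 9.73 in SK-Hep1 controls and 9.40 and 9.35 after knockdown, and 9.40 and 9.40 in Huh7 controls and 9.73 and 9.70 after knockdown. The replicate arrays lay almost on each other, and the gene fell in SK-Hep1 (-0.35 ± 0.0637, adjusted p = 0.00492) and rose in Huh7 (0.32 ± 0.0637, adjusted p = 0.00332). ACOT2 read 7.70 and 7.56 in SK-Hep1 controls and 7.34 and 7.35 after knockdown (-0.29 ± 0.0739, adjusted p = 0.0253). In Huh7 its controls at 7.44 and 7.47 were just below the knockdown arrays at 7.48 and 7.59 (0.09, adjusted p = 0.370). These genes are near-identical copies on chromosome 14 with 1 protein-coding gene between them, so a probe of one may read the other and both values are uncertain. ACOT2 lost its call without SK-Hep1 control array 1 (adjusted p = 0.148) or knockdown array 12 (0.0557).

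Of the ketone body enzymes, ACAT1, which joins and splits acetoacetyl-CoA in mitochondria, differed by -0.13 in SK-Hep1 and -0.02 in Huh7, neither called. BDH1, which interconverts acetoacetate and hydroxybutyrate, stayed below the brightness cut on its 3 probes, the brightest with a mean of 6.82. It was not tested, and a change in it would not have been detectable.

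The response to the knockdown differed between the lines for 13 of the 32 members (40.6%), against 31.3% of all genes, by a test of the difference in SK-Hep1 less that in Huh7. The difference ran toward a higher SK-Hep1 value for ACOX2 (1.08 ± 0.161, adjusted p = 0.000911), PPARGC1A (0.88), PPARA (0.79), PPARD (0.54), ACADS (0.49), PDK4 (0.47), CRAT (0.41) and ACADVL (0.34). It ran the other way for ACOT1 (-0.67), PEX11A (-0.51), ECHS1 (-0.46), ACOX3 (-0.37) and ACOT2 (-0.37). All 4 regulators were thus among them. The fall of SMARCB1 itself was also larger in Huh7 by this test (0.48, adjusted p = 0.0350). That call was kept in only 1 of the 8 fits without 1 array. In contrast to the 13 members, HADH differed by -0.29 and -0.35, with 0.06 between the lines (adjusted p = 0.768). In the main fit only its Huh7 change passed the test on its own. The members called in both lines, ACOX2 and ACOT1, went in opposite directions, as did 48.4% of the 1098 genes called in both lines over the whole array. Differences had the same sign in both lines for 16 of 32 members (50%), beside 49.9% of all genes. In the fits without 1 array, 8 of the 13 kept this call, and ACADVL, ACADS, ACOX3, ACOT2 and PPARD lost it at least once. ACADVL lost it without Huh7 control array 2 (adjusted p = 0.0815), knockdown array 3 (0.0504) or knockdown array 4 (0.0690), and ACADS without Huh7 control array 2 (0.0610). ACOX3 lost it without Huh7 control array 1 (0.0669), control array 2 (0.0518) or knockdown array 3 (0.0609), and PPARD without SK-Hep1 control array 1 (0.0540) or Huh7 control array 1 (0.0616). For ACOT2 the arrays were SK-Hep1 control 1 (0.0712) and Huh7 control 1 (0.0786), control 2 (0.0614) and knockdown 4 (0.0924).

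**Figure D3:**
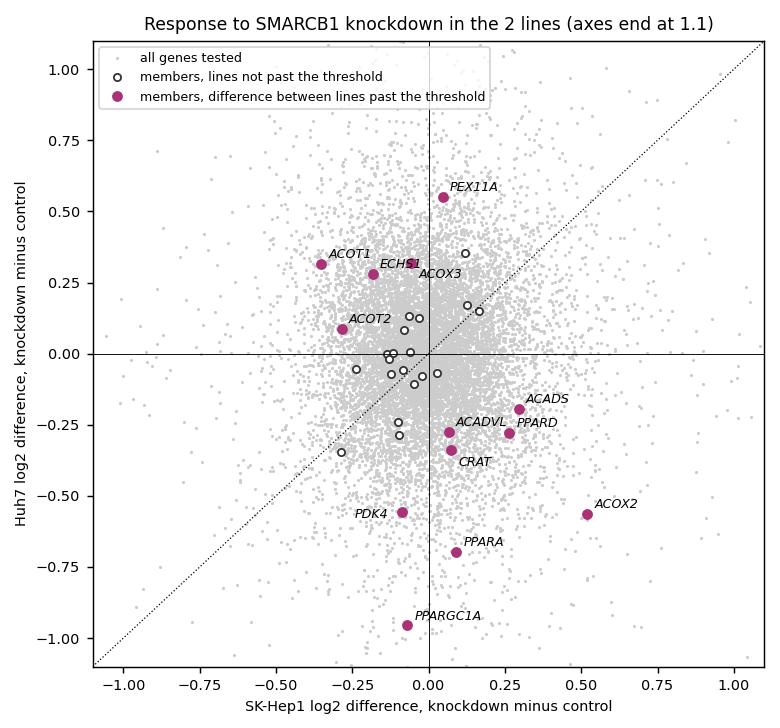
Log2 difference, knockdown minus control, in SK-Hep1 (horizontal axis) and Huh7 (vertical axis) for all tested genes within 1.1 of 0 (grey) and the 32 tested members (rings), with filled points for the 13 members whose response differed between the lines. ACOX2 lies at 0.52 and -0.56, and PPARGC1A, PPARA and PDK4 lie below the horizontal line and near the vertical one.

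Further probes were on the array for 11 members and did not all move alike. For PPARA a second bright probe gave 0.18 in SK-Hep1 and -0.48 in Huh7, the same directions as the probe that stood for the gene. For PPARD the second bright probe gave 0.18 and -0.04, so the Huh7 fall rested on the brightest probe. The other probes of ACOT1 and ACOT2 were below the brightness cut. The probes of a gene may read different transcripts, which was not tested.

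**Figure D4:**
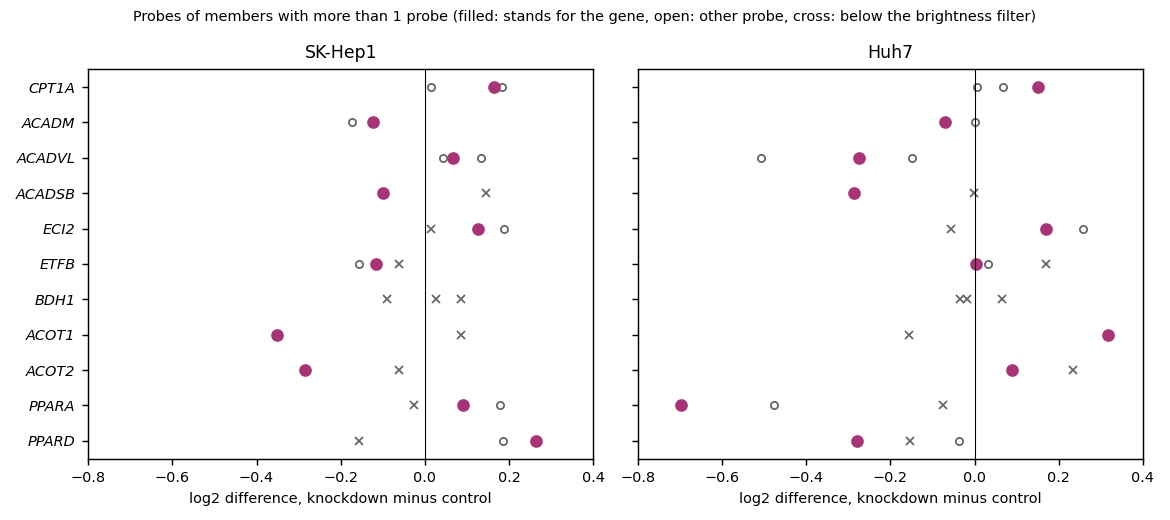
Log2 difference, knockdown minus control (horizontal axis), for every probe of the 11 members with more than 1 probe (rows), in SK-Hep1 (left) and Huh7 (right). Filled points stand for the gene, rings are other bright probes and crosses are probes below the brightness cut; the PPARA ring in Huh7 lies at -0.48.

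Other genes of the pathway were taken from a list of 59, of which 41 were tested, 9 lay below the brightness cut and 9 were not analysed here. In Huh7 10 of the 41 fell and 7 rose (41.5%, against 38.9% of all genes), and in SK-Hep1 5 fell and 3 rose (19.5%, against 16.8%). The response differed between lines for 16 (39%, against 31.3%). The median difference was -0.02 in SK-Hep1 and -0.07 in Huh7. Named are those called with a log2 difference of at least 0.5 in either line.

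PLIN2, the coat protein of lipid droplets, read 12.56 and 12.70 in Huh7 controls and 13.33 and 13.30 after knockdown. It rose by 0.69 ± 0.0704 without overlap (adjusted p = 6.19e-05), and in SK-Hep1 the controls at 12.82 and 12.81 lay below the knockdown arrays at 13.03 and 13.05 (0.23, adjusted p = 0.0505). CROT, which puts medium chains on carnitine in peroxisomes, rose in Huh7 from 8.09 and 8.16 to 8.78 and 8.72 (0.62 ± 0.0773, adjusted p = 0.000199). In SK-Hep1 CROT read 8.32 and 8.35 in controls and 8.62 and 8.44 after knockdown (0.20, adjusted p = 0.104). AMACR, the racemase that prepares branched chains for the oxidase ACOX2, rose in Huh7 from 8.46 and 8.36 to 8.97 and 8.91 (0.53 ± 0.0683, adjusted p = 0.000256). It fell in SK-Hep1 from 8.82 and 8.86 to 8.53 and 8.56 (-0.29, adjusted p = 0.0170). AMACR thus moved opposite to ACOX2 in each line. Its SK-Hep1 call was lost without SK-Hep1 control array 1 (adjusted p = 0.0613) or control array 2 (0.0784).

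ACACB, the carboxylase whose malonyl-CoA inhibits CPT1, fell in Huh7 from 8.03 and 8.08 to 7.49 and 7.43 (-0.59 ± 0.101, adjusted p = 0.00122). In SK-Hep1 its controls at 7.67 and 7.77 lay within the knockdown arrays at 7.93 and 7.59 (0.04, adjusted p = 0.834). ECHDC2, an enoyl-CoA hydratase domain protein, fell in Huh7 from 12.06 and 12.05 to 11.55 and 11.55 (-0.51 ± 0.0662, adjusted p = 0.000272). In SK-Hep1 ECHDC2 read 11.78 and 11.87 in controls and 11.76 and 11.79 after knockdown (-0.05, adjusted p = 0.650). SLC27A2, which activates very long chains, was the reverse case and fell in SK-Hep1 from 8.98 and 9.05 to 8.45 and 8.36 (-0.61 ± 0.0689, adjusted p = 0.000374). Its Huh7 controls at 8.61 and 8.62 and knockdown arrays at 8.74 and 8.67 differed by 0.09 (adjusted p = 0.307).

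**Figure D5:**
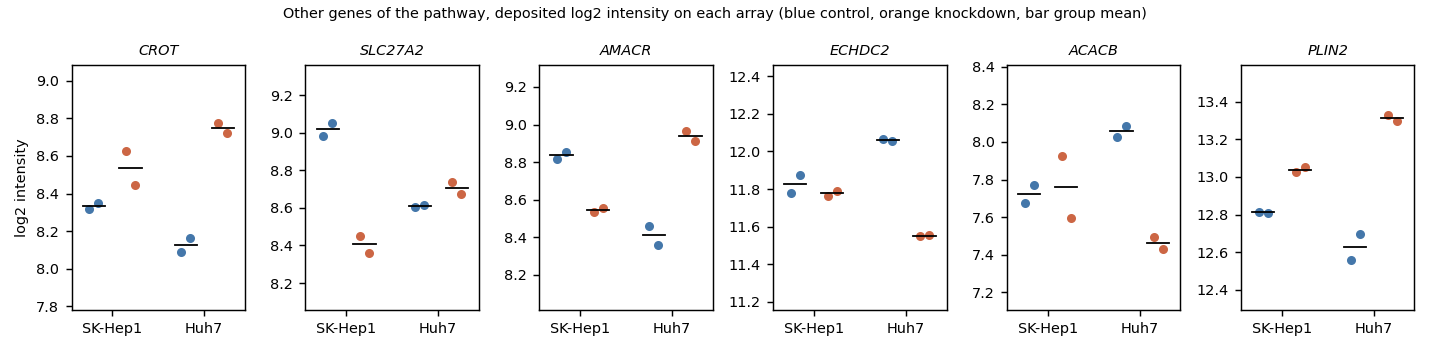
Deposited log2 intensity (vertical axis) on each array for the 6 other pathway genes named, with controls in blue, knockdown in orange and a bar at the group mean. In Huh7 CROT, AMACR and PLIN2 have both orange points above the blue ones, ECHDC2 and ACACB have them below, and SLC27A2 separates most in SK-Hep1.

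Receptor partners from the same list were picked out after their values were seen. RXRA, the partner with which the PPAR receptors bind DNA, read 10.91 and 10.90 in Huh7 controls and 10.40 and 10.42 after knockdown (-0.49 ± 0.0957, adjusted p = 0.00267). In SK-Hep1 RXRA rose from 10.34 and 10.48 to 10.91 and 10.61 (0.35, adjusted p = 0.0320). ESRRA, a nuclear receptor that works with PPARGC1A, likewise fell in Huh7 (-0.30, adjusted p = 0.00597). ESRRA rose in SK-Hep1 (0.23, adjusted p = 0.0411). PPARG fell in Huh7 (-0.42, adjusted p = 0.00668) and differed by 0.04 in SK-Hep1 (adjusted p = 0.800). CREB3L3, also on that list, went the other way, by 0.13 in Huh7 (adjusted p = 0.134) and -0.23 in SK-Hep1 (adjusted p = 0.0367). Its SK-Hep1 call was lost in every fit without 1 array, and PPARGC1B lay below the brightness cut. ANGPTL4, a secreted lipase inhibitor known as a PPAR target, rose by 0.45 in SK-Hep1 (adjusted p = 0.00246). Its rise in Huh7 was 0.23 (adjusted p = 0.0246). Both SK-Hep1 rises of the receptors were lost without any one array other than SK-Hep1 knockdown array 12 (adjusted p = 0.0515 to 0.182 for RXRA and 0.0703 to 0.144 for ESRRA). The value of RXRA was 0.20 without knockdown array 11. The Huh7 rise of ANGPTL4 was lost without any one Huh7 array (0.0636 to 0.151) and with its bright probes averaged (0.08, adjusted p = 0.422).

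Markers of liver cells and of other cell types were counted in the same fit, which called 38.9% of all genes in Huh7 and 16.8% in SK-Hep1. Called shares in Huh7 were 50% of hepatocyte, 50% of endothelial, 28.6% of stromal and 25% of immune markers. In SK-Hep1 they were 12.5%, 50%, 14.3% and 50%, and all rest on 2 to 8 genes. Of 8 tested hepatocyte markers 1 rose and 3 fell in Huh7, among them APOA1 (0.99) and AHSG (-0.71), and 1 rose in SK-Hep1, SERPINA1 (0.58). Their mean log2 intensity was 10.53 on both Huh7 controls and 10.48 and 10.53 after knockdown, and 10.31 and 10.29 against 10.39 and 10.35 in SK-Hep1. Of 2 tested endothelial markers ENG rose in SK-Hep1 and PECAM1 fell in Huh7, and 6 of the 8 listed were below the cut. Of 7 stromal markers 1 fell in SK-Hep1, and 1 rose and 1 fell in Huh7. Of 4 tested immune markers CD14 (1.04) and CD68 (0.61) rose in SK-Hep1 and CD14 fell in Huh7 (-1.07). CD79A and LYZ were called in neither line, and PTPRC, CD3E, CD163 and CSF1R were below the cut. The mean log2 intensity of the 4 tested immune markers, moved most by CD14, went from 8.79 and 8.83 to 9.29 and 9.24 in SK-Hep1. In Huh7 it went from 9.23 and 9.24 to 8.82 and 8.92. That of the 7 stromal markers went from 8.64 and 8.78 to 8.50 and 8.58, and from 8.61 and 8.62 to 8.62 and 8.66. That of the 2 endothelial markers went from 7.64 and 7.72 to 7.83 and 7.83, and from 7.78 and 7.87 to 7.65 and 7.59. Their part in the changes of the oxidation genes was not tested.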

How the data were processed

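Gene expression was measured on 8 Illumina BeadChip arrays, hybridised with biotin-labelled cRNA from 0.55 µg of total RNA, per the labels' protocols. The deposited values are log2 intensities of 47319 probes, made by the authors with GenomeStudio 2011.1 per the submitters' processing notes; how background and normalization were handled is not stated there or in the labels. Array medians were 6.931 to 6.934 and the lowest values 5.904 to 5.974, so differences of dim genes may be understated. A second table of signals with 16 value columns, whose names match no label, was not used.

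Of the probes, 30110 had 1 gene symbol, 8 several and 17201 none in the platform annotation. A probe entered when its 8-array mean exceeded the 95th percentile (7.003) of 637 background probes (olfactory, vomeronasal and taste receptors, defensins, keratin-associated proteins), and the brightest probe stood for its gene. Symbols of all 33 members matched the RefSeq gene table.

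R 4.3.3 and limma 3.58.1 (functions lmFit, eBayes) fitted the group means over all 8 arrays, with 4 residual degrees of freedom, two-sided tests and Benjamini-Hochberg adjustment over 12411 genes at 0.05. The script was tested on simulated data. The number of arrays limits the precision. Alternatives were leaving out each array, a 99th percentile cut, no cut, the mean of bright probes, quantile normalization, the arrays of a line alone, array weights, and a variance trend with robust estimation. The members, the lists and the rule for naming (members called in a line or between the lines with every array, the other pathway genes at a log2 difference of at least 0.5) were chosen with earlier results of these data known. Promoter windows came from RefSeq (GRCh38.p14). Protein sequences were not used here.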

Additional observations from a re-analysis of the deposited data

Results flagged for a closer look

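The difference between the lines in the response to the knockdown passed its own test (limma, Benjamini-Hochberg adjusted p under 0.05, n = 2 arrays per group) for the following genes. Values are the SK-Hep1 log2 difference minus the Huh7 log2 difference. Among the regulators they were 0.88 for PPARGC1A (adjusted p = 0.00017), 0.79 for PPARA (0.000642), 0.54 for PPARD (0.0133) and 0.47 for PDK4 (0.00806). Among the peroxisomal genes they were 1.08 for ACOX2 (0.000911), -0.51 for PEX11A (0.00622) and -0.37 for ACOX3 (0.0166). Among the mitochondrial enzymes they were 0.49 for ACADS (0.0128), 0.41 for CRAT (0.00759), 0.34 for ACADVL (0.0178) and -0.46 for ECHS1 (0.00767). The thioesterases gave -0.67 for ACOT1 (0.000526) and -0.37 for ACOT2 (0.0213), with the doubt that probes of these copies may cross-read.

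Of the other pathway genes, 16 had a difference between the lines. Those with a log2 difference of at least 0.5 in a line were SLC27A2 (-0.71, adjusted p = 0.000602), AMACR (-0.82, 0.000238), CROT (-0.42, 0.0150), PLIN2 (-0.46, 0.00666), ECHDC2 (0.46, 0.00499) and ACACB (0.63, 0.00806). RXRA (0.84, 0.00137), ESRRA (0.53, 0.00257) and PPARG (0.46, 0.0266) were picked out after their values were seen. The rest were ECHDC1 (-0.69, 0.00531), ACSL4 (0.49, 0.00426), CREB3L3 (-0.37, 0.0143), OXCT1 (-0.37, 0.0157), ACAD9 (-0.36, 0.0200), PDK1 (-0.32, 0.0298) and ACOT4 (-0.33, 0.0492), also named after their values were seen. ECHDC1 was lower in SK-Hep1 (-0.38, adjusted p = 0.0288) and higher in Huh7 (0.31, 0.0322). Its SK-Hep1 call was lost without SK-Hep1 control array 1, control array 2 or knockdown array 12 (-0.25, 0.128, without the last), and its Huh7 call without control array 2 (0.20, 0.243), knockdown array 3 or knockdown array 4. ECHDC1 and ACSL4 kept the difference between the lines without any one array. CREB3L3 and OXCT1 lost it without Huh7 control array 1, control array 2 or knockdown array 4 (0.0510 to 0.0632 and 0.0515 to 0.0747), and ACAD9 without SK-Hep1 control array 2, either Huh7 control array or Huh7 knockdown array 3 (0.0517 to 0.0841). PDK1 lost it without any Huh7 array, SK-Hep1 control array 1 or SK-Hep1 knockdown array 12 (0.0576 to 0.117), and ACOT4 without any array other than SK-Hep1 knockdown array 11 (0.0714 to 0.137). The difference for CROT was lost without Huh7 control array 1 (adjusted p = 0.0675) or knockdown array 3 (0.0582). That for PPARG was lost without any one Huh7 array, without SK-Hep1 control array 1 or without knockdown array 12 (0.0555 to 0.0917). The lines also differ in the control named in the titles and in the numbers the knockdown titles carry, which cannot be told apart from the line. The depth of the knockdown cannot be told apart from it either. SMARCB1 fell further in Huh7, with 0.48 between the lines by the same test (adjusted p = 0.0350). That value was 0.30 to 0.67 when 1 array was left out. The call was kept only without SK-Hep1 knockdown array 11, so the difference in depth is itself uncertain.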

How the results depend on the processing

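No called value changed direction under any alternative, while 46 of 1126 alternative values of differences that were not called did, among them ACAA2 in SK-Hep1 (-0.11 without knockdown array 11). Within a line, another cut, the arrays of the line alone, array weights and the variance trend left the difference itself unchanged. So did leaving out an array of the other line, and in those fits the direction could not change. Counts in SK-Hep1 depended most on the fit. Without 1 array the 2091 genes called there became 927 to 2443, members higher 0 to 3 (2 with all arrays) and members lower 1 to 4 (3). With the SK-Hep1 arrays alone 1086 genes were called and with array weights 1198, and either setting left 1 member higher and 1 lower. ACADS, ECI1 and ACOT2 were called in neither. In Huh7 these settings went the other way, with 6066 genes called from the Huh7 arrays alone and 6359 with array weights. With no cut on dim probes 1 member was higher in SK-Hep1 and 4 were higher in Huh7. In Huh7 the 4833 genes called became 2877 to 5606 without 1 array, members higher 3 to 6 (5) and members lower 6 to 10 (10). Genes whose response differed between the lines numbered 3890, and 2530 to 4491 without 1 array. Leaving out an array or fitting a line alone also lowers the residual degrees of freedom, while array weights and the cut on dim probes do not. The array weights were 0.859 and 0.540 for SK-Hep1 control and knockdown arrays, and 1.56 and 1.38 for those of Huh7. The cause of the changed counts was not tested. Of the single-gene values under all alternatives 1998 kept their call or lack of one, 165 lost a call and 19 gained one. No paired analysis was possible because control and knockdown arrays of a line share no replicate number in the titles. Dim members limit what can be read: BDH1 was not testable, and the stricter cut drops PPARA, PDK4, ACOT2, ACADSB and ACADL.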
